A study of Malus domestica with 34 samples.

Results

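Leaves of droughted apple seedlings were compared between the end of the first drought and the end of the third, within sowing blocks. The 6 libraries, 3 from each drought, are 6 of the 34 in the series and were selected by their labels for tissue, watering regime, sampling and block. All came from Malus domestica seedlings of GDDH18, a doubled haploid of 'Golden Delicious' whose paired chromosomes are copies of each other. Plants were 12 weeks old when the regimes started. The droughted regime (61 plants) went through cycles of 3 weeks with soil water held at 45% of field capacity and 3 weeks of rewatering. First-drought leaves had been through 1 such period, and third-drought leaves through 3 periods with rewatering between them. The well-watered regime (64 plants) was held near 80% and gave 3 leaf libraries at each of the same samplings, used here to place the levels. Leaves picked in the year that followed, once the plants had overwintered and while none was under stress, gave a further 3 libraries per regime. Each block was a separate sowing, 1 week apart per the labels, so the libraries of a group are biological replicates. How many plants went into a library, and whether the same plants were sampled again, is not stated in the labels.

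In a drying soil, leaves raise abscisic acid, close their stomata and shift transcription, lowering genes of growth and photosynthesis and raising genes of osmotic protection. On rewatering most such changes fade, and a response that differs at a later drought is often called stress memory or acclimation. Leaf transcripts also change as a plant ages and the season moves on. In the droughted libraries alone the number of droughts, plant age and season cannot be told apart. The well-watered change is given beside the main results.

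The 6 libraries held between 25974815 and 49316837 counts. Genes are given by the identifiers of the deposited table (MD, a 2-digit number, G and a serial number), which are paired with no names in the files. None of the 52311 identifiers had a match in the RefSeq gene table supplied (0 matches), so no function is stated for any gene. Named leaf and cell type markers could therefore not be read. The label was checked with genes restricted to leaf in well-watered plants at the first sampling (at least 10 CPM in every leaf and under 1 CPM in every root library). CPM is a count scaled to the size of its library. Levels in leaf libraries use edgeR's TMM factors, while the cuts that define lists and the numbers of genes detected use none. These leaf-restricted genes held 5.84 to 6.36% of the counts in the first-drought leaves and 5.67 to 5.91% in the third-drought leaves, against at most 0.0190% in any root library. Block 3 of the third sampling stood apart in both regimes. In 3466 of the tested genes (10.7%) the droughted block 3 library lay at least 2-fold above or below both others of its group, and 3730 (11.5%) did so in well-watered leaf. In the other 10 first-year leaf libraries that share was between 2.09 and 7.51%. Of the genes that lay above in droughted block 3, 805 (51.4%) also lay above in well-watered block 3. The well-watered block 2 library of the third sampling held 29.6% of its counts in 10 genes, against at most 8.36% in any other first-year leaf library.

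Expression changed widely between the droughts, with about as many genes higher as lower. Of 32307 genes tested, 5163 were called, which is 16% (edgeR's quasi-likelihood test with sowing block as a term, Benjamini-Hochberg adjusted p under 0.05). They were divided into 2621 genes that rose (8.11% of those tested) and 2542 that fell (7.87%). Among called genes the rises were the larger, with medians of 2.46-fold higher for those that rose and 1.81-fold lower for those that fell. The called rises were also the less abundant, and any part of abundance in these sizes was not tested. The genes called in well-watered leaf between the same samplings had medians of 2.71-fold higher and 1.65-fold lower. In droughted leaf at least 2-fold changes were seen in 1805 of the genes that rose and 1050 of those that fell, and at least 4-fold changes in 582 and 316. Among the genes that rose, 26 had no count in any first-drought library, and 4 that fell had none in any third-drought library. Setting these to a floor of 3 counts over the group left both medians unchanged at 1.30 and -0.86 on the log2 scale. The 3 libraries of the third drought did not overlap the 3 of the first in 32.4% of the genes tested, with 16.4% higher throughout and 16% lower throughout. With upper-quartile scaling the split was 3230 higher and 1782 lower, 64.5% higher against 50.8% with TMM, and the median of all genes moved by 0.0939.

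The count depended on the groups in the fit and on single libraries. With edgeR on the 4 first-year leaf groups it was 2383. It was 3063 without block 1 of the first drought, 2087 without block 2 of the first, 2067 without block 2 of the third and 2710 without block 3 of the third. Fitting the 6 droughted libraries alone with the block, which leaves 2 residual degrees of freedom, called 0 genes with edgeR, although 5392 were under 0.05 before adjustment. DESeq2 on the same 6 libraries called 2775, and edgeR on them without the block called 1838. In the 25 alternatives tried, every called gene that was tested kept the sign of its change. The alternatives refit libraries on which the genes were called, so the kept sign follows largely from their choice.

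**Figure D1:**
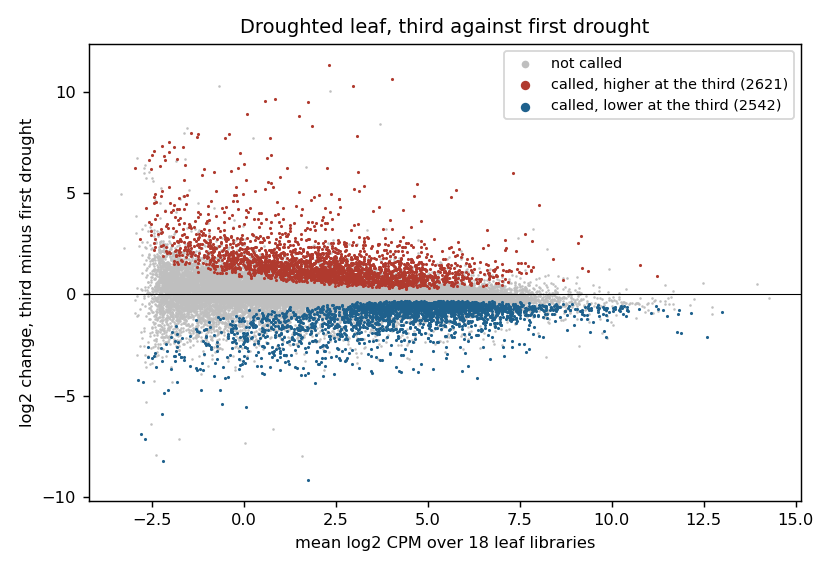
Log2 change between the droughts, the third minus the first, in droughted leaf (vertical) against the mean log2 CPM over 18 leaf libraries (horizontal), 1 point per tested gene. Red points are the 2621 called genes that rose and blue points the 2542 that fell; the called falls lie further to the right, among abundant genes, than the called rises.

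Abundance set the called rises and falls apart. The median mean level was 2.24 log2 CPM for the genes that rose and 4.62 for those that fell, against 2.99 for all genes tested. Below a mean of 0 log2 CPM 7.31% of genes rose and 2.24% fell. From there the share that fell climbed through 4.58%, 6.31% and 11.5% in successive classes bounded at 2, 4 and 6 log2 CPM, and reached 21.6% above 6. The share that rose was 12.3% between 0 and 2 and 3.55% above 6.

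The genes that fell held 25.3, 26.9 and 24.8% of all counts in blocks 1, 2 and 3 at the first drought and 18.2, 16.3 and 14.5% at the third. The genes that rose held 1.83, 1.70 and 2.24% at the first drought and 4.81, 5.60 and 5.43% at the third. These shares follow from the choice of the genes and are given as a description. A pair of measures of the whole library did not use the calls. The number of genes at 1 CPM or more was 25426, 25422 and 26169 at the first drought and 27133, 26769 and 26940 at the third, a mean of 25672 ± 430 against 26947 ± 182 (SD, n = 3 each). This CPM used no TMM factors, which were 0.905 to 1.03 in first-drought libraries and 1.17 in each third-drought library. The number with TMM scaling was not computed. The 100 most abundant genes of each library held 24.9, 24.2 and 21.8% of the counts at the first drought and 19.5, 18.8 and 21.4% at the third. Neither measure overlapped between the droughts. In well-watered leaf the number of genes was 25358 ± 850 at the first sampling and 26828 ± 434 at the third (SD, n = 3 each). The share in the 100 most abundant genes was 24.1 ± 1.70% and 26.3 ± 11.2% there, with the block 2 library of the third sampling at 39.1% and the others at 18.5 and 21.2%. For the droughted leaves the exact two-sided permutation test gave p = 0.1 for both measures, the smallest it can give with 3 against 3, and the exact sign-flip test over blocks gave 0.25, also its smallest. The share in the 10 most abundant genes did overlap, with means of 7.90 ± 0.523% and 6.81 ± 0.938% (SD, n = 3 each; exact permutation p = 0.2).

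All 3 blocks had the direction of the call in 2604 of the genes that rose (99.4%) and 2492 of those that fell (98.0%), where 21.6 and 20.4% of all tested genes were higher or lower in all 3. The genes were called on these blocks, so this agreement follows from their choice. Block 2 had the largest median change of the genes that rose, at 1.43 on the log2 scale, with 1.20 in block 1 and 1.10 in block 3. Among the genes that fell the medians were -0.65, -0.99 and -0.91 in blocks 1, 2 and 3. Over all tested genes the change in block 1 correlated with that in block 2 at Pearson r = 0.57, and block 3 correlated with block 1 at 0.22 and with block 2 at 0.37 (across 32307 genes, which are not independent replicates). Leaving out block 3 of the third sampling in both regimes gave 4870 calls, 3539 of them among the 5163.

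Well-watered leaves also changed between the same samplings. In the same fit 5100 genes (15.8%) were called in well-watered leaf, with 2751 higher (8.52%) and 2349 lower (7.27%) at the third sampling, and 31.8% of genes did not overlap between the samplings. Of the genes that rose in drought, 251 (9.58%) also rose in well-watered leaf, where 8.52% of all genes did. Another 105 fell there (4.01%, against 7.27% of all genes). Of the genes that fell in drought, 595 (23.4%) also fell in well-watered leaf, against 7.27% of all genes. Another 51 rose there (2.01%, against 8.52% of all genes). As shares of the well-watered calls these shared genes were 9.12% of the rises and 25.3% of the falls. The overlap moved with block 3. Without block 3 of the third sampling in both regimes, 439 of 2732 genes that rose also rose in well-watered leaf (16.1%, where 8.10% of all genes did). Without block 3 throughout the count was 675 of 3049 (22.1%, against 9.92%). For the falls the shared counts were 423 of 2138 (19.8%, against 6.42% of all genes) and 799 of 2568 (31.1%, against 7.81%). In the fit of all libraries, 62.5% of the genes that rose and 22.7% of those that fell had a positive change in well-watered leaf, against 48.9% of all genes. The genes that rose had a median well-watered change of 0.18 on the log2 scale and those that fell a median of -0.31. The well-watered count was 1739 and 2176 without blocks 1 and 2 of the first sampling, and 1772 without block 2 of the third.

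The difference between the droughted and the well-watered change was tested directly. It was called for 1872 genes (5.79% of those tested), with the change more positive in drought for 1102 (3.41%) and more negative for 770 (2.38%). Among the genes that rose in drought, 770 rose by more than in well-watered leaf (29.4%), and among those that fell, 306 fell by more (12.0%). The count of 1872 depended on the fit: edgeR on the 4 first-year groups, which hold every library of this contrast, called 0 genes (6294 with an unadjusted p under 0.05), and DESeq2 on the same groups called 2888. With a separate block term within each sampling, edgeR called 6018, of which 1868 were among the 1872. The difference uses the same droughted libraries as the call itself, so these shares are a description. For 1601 of the genes that rose (61.1%) and 1642 that fell (64.6%) neither the well-watered change nor the difference was called. A miss on both tests does not place a gene with either regime.

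**Figure D2:**
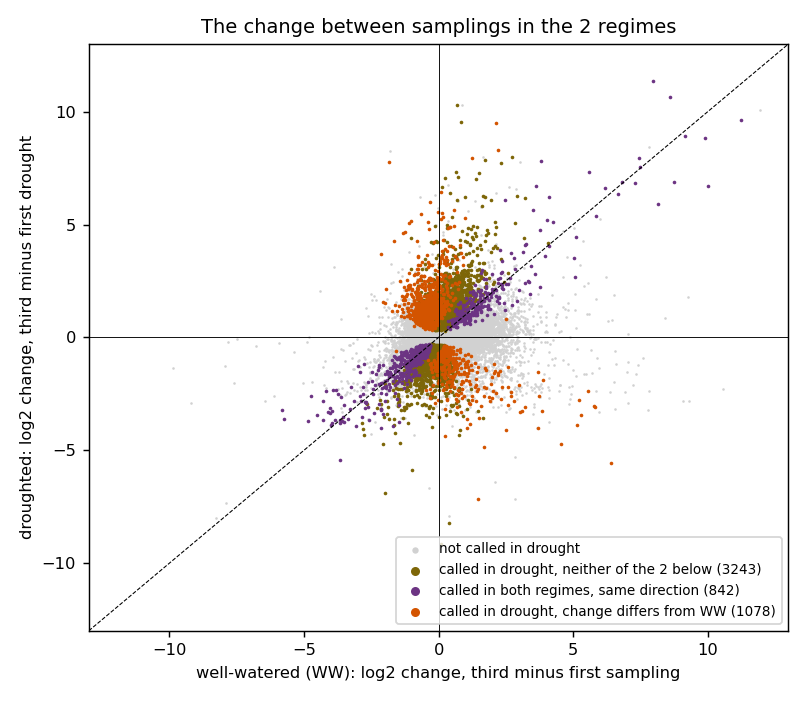
Log2 change between the samplings in droughted leaf (vertical) against that in well-watered leaf (horizontal), 1 point per tested gene, with equal changes on the dashed line. Of the 5163 genes called in drought, 842 (purple) were called in both regimes in the same direction without a called difference, 1078 (orange) differed from the well-watered change, and 3243 (brown) had neither call.

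Levels of these classes in each leaf group are given as a description. Each level below is the median log2 CPM over the genes of a class, as a mean of 3 libraries ± SD. All first-year values, droughted and well-watered, follow from how the classes were chosen and carry no test. Next-year libraries took no part in that choice other than through the shared fit. The 251 genes that rose in both regimes were at 0.19 ± 0.25 in droughted and 0.27 ± 0.37 in well-watered leaf at the first sampling. At the third they were at 1.75 ± 0.31 and 1.87 ± 0.14, and in the next year at 1.38 ± 0.14 and 1.56 ± 0.18. The 595 that fell in both stood at 5.54 ± 0.09 and 5.49 ± 0.20 at the first sampling and at 4.69 ± 0.21 and 4.65 ± 0.10 at the third. In the next year they were at 5.07 ± 0.07 in droughted and 5.06 ± 0.06 in well-watered leaf, between the 2 earlier samplings. In both classes the libraries of the regimes overlapped at every sampling.

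The 770 genes that rose by more than in well-watered leaf were at 2.06 ± 0.08 at the first drought, while well-watered leaf of that sampling was at 3.48 ± 0.13. By the third drought they were at 3.42 ± 0.05, and well-watered leaf was at 3.09 ± 0.30. Next-year leaves were at 3.30 ± 0.12 and 3.24 ± 0.06. The group means other than that of the first drought lie between 3.09 and 3.48.

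The 306 genes that fell by more were at 4.36 ± 0.12 at the first drought and 3.01 ± 0.31 in well-watered leaf of that sampling. At the third drought they were at 2.94 ± 0.21, with well-watered leaf at 3.55 ± 0.31, and next-year leaves were at 3.40 ± 0.16 and 3.43 ± 0.11.

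Droughted and well-watered leaf were also set against each other at each sampling. The called genes' median log2 difference of droughted from well-watered leaf was -0.96 for the genes that rose and 0.39 for those that fell at the first sampling, and 0.17 and -0.11 at the third. These contrasts share libraries with the comparison of the droughts and are set side by side only. Across all genes, droughted and well-watered leaf differed in 3969 genes at the first sampling by edgeR and 6236 by DESeq2. At the third both called 0, where 677 genes had an unadjusted edgeR p under 0.05. The block term of this fit is shared by all samplings, while libraries of 1 block deviated together between the regimes within a sampling. A block term within each sampling left 6 residual degrees of freedom. With it edgeR called 8900 genes at the first sampling and 0 at the third, where 1532 had an unadjusted p under 0.05. Both 677 and 1532 of 32307 genes are shares below 0.05, the share expected with no difference. The 0 calls therefore do not show that the regimes were alike. This contrast was not refitted without the well-watered block 2 library of the third sampling. The difference between the regimes in the change was sensitive to single libraries: the genes called in drought that also passed it numbered 1078, and 333 without the well-watered block 2 library of the third sampling. Removing block 1 of well-watered leaf at the first sampling left 566. The number was 442 and 490 without blocks 1 and 2 of the first drought, and 279 and 681 without blocks 2 and 3 of the third.

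**Figure D3:**
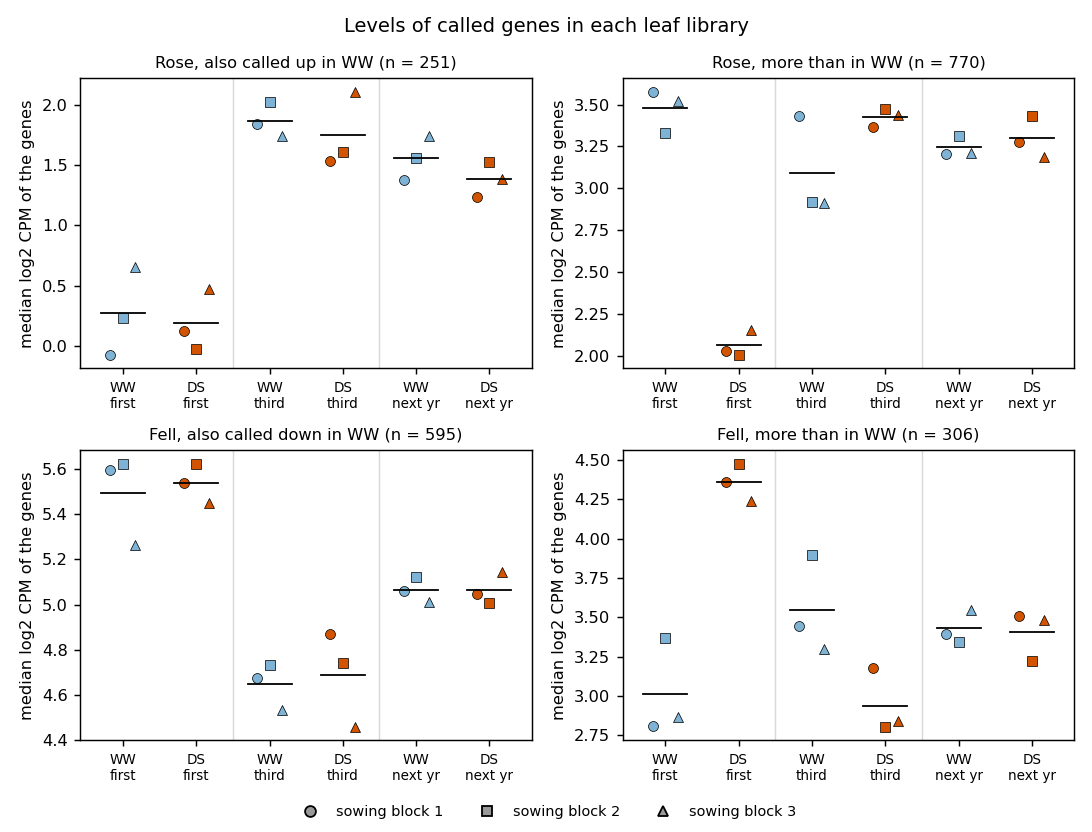
Median log2 CPM of 4 classes of called genes in each of the 18 leaf libraries, by regime (WW, well-watered; DS, droughted) and sampling; point shapes are sowing blocks and bars are means of 3 libraries. The left panels hold the 251 and 595 genes called in both regimes and the right panels the 770 and 306 with a called difference; the first-year pattern of each panel follows from how its genes were chosen.

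Genes grouped by libraries outside the comparison of the droughts gave further context. Of 598 leaf-restricted genes tested, 146 fell (24.4%, against 7.87% of all genes) and 65 rose (10.9%, against 8.11%), with a median change of -0.27 on the log2 scale against -0.01 for all genes. The list asks for at least 10 CPM in leaf. Of all genes in the classes of 2 to 4, 4 to 6 and above 6 log2 CPM, 6.31, 11.5 and 21.6% fell. In the same classes 9.34, 5.51 and 3.55% rose. Any part of abundance in the shares of the list was not tested. In well-watered leaf the median change of the leaf-restricted genes was -0.48. Of these 598 genes the difference of the changes was called for 77 as more positive in drought and for 12 as more negative. The shares over all genes tested were 3.41 and 2.38%. The list was chosen by high levels in well-watered leaf of the first sampling. Both the well-watered change and the difference use those libraries, so these values may follow in part from that choice. The 100 most abundant genes of well-watered leaf were mostly lower, with 28% called lower and 2% called higher, against 7.87 and 8.11% of all genes. Their median change was -0.54, against -0.77 in well-watered leaf. They held 22.7 ± 1.58% of the counts at the first drought and 19.3 ± 1.10% at the third (SD, n = 3 each). Genes that rose over the winter in well-watered leaf, from the third sampling to the next year, numbered 3107. Of these 638 (20.5%, against 7.87% of all genes) had fallen between the droughts and 209 (6.73%, against 8.11%) had risen. The median well-watered change of the list was -0.37. Of the 3338 that fell over the winter, 377 (11.3%, against 8.11%) had risen between the droughts and 288 (8.63%, against 7.87%) had fallen. That list had a median well-watered change of 0.22. The winter lists use the well-watered libraries of the third sampling, as do their well-watered medians. Departures from the group mean in droughted and well-watered leaf of blocks 1, 2 and 3 correlated at 0.31, 0.18 and 0.46 at the first sampling. At the third sampling they correlated at 0.40, 0.22 and 0.64. Lists from well-watered leaf are therefore not independent of the comparison of the droughts. Root-restricted genes, defined as the reverse of the leaf list, were a check for carried-over root. They held 0.0158 to 0.0208% of first-drought and 0.0107 to 0.0328% of third-drought leaf counts, against at least 2.61% in any root library. Of the 209 that were tested of 405, 8 rose (3.83%, against 8.11% of all genes) and 13 fell (6.22%, against 7.87%). Their median changes were -0.40 in droughted and 0.28 in well-watered leaf, whose first-sampling libraries took part in defining this list. In tissue RNA of this kind, fewer cells of a type and less RNA per cell cannot be told apart.

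Among the 1829 rises and 2197 falls with a mean of at least 1 log2 CPM, no overlap and 1 direction in all blocks, the largest changes in each direction are given in full. MD05G1196800 had the largest fitted rise. It was at 0, 0 and 0 CPM in blocks 1, 2 and 3 at the first drought and at 0.0471, 8.21 and 16.4 CPM at the third, so block 1 stayed close to the first-drought level. From 0 counts at the first drought and 932 at the third, the pooled level was at least 296-fold higher, with a floor of 3 counts over the group. Its fitted log2 change of 11.35 (SE 2.75, edgeR adjusted p = 0.0204) depends on how counts of 0 are handled and is no bound. Well-watered leaf went from at most 0.0578 CPM to between 1.78 and 5.48 CPM, a fitted change of 7.96. The adjusted p ran from 6.6e-06 to 0.0766 over 22 alternatives. It was above 0.05 without block 2 or 3 of either drought and without block 3 throughout. In the fits of the droughted libraries alone the gene did not pass the filter on low counts, so it was not tested there.

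MD01G1193600 rose evenly in all blocks. It was at 0, 0 and 0.0197 CPM at the first drought, which is 1 count in all, and at 16.8, 19.1 and 18.8 CPM at the third (mean 18.2 ± 1.23, SD, n = 3). The ratio of the pooled levels was 2178, with a 95% exact interval of 391 to 86074 for counting error only, and the edgeR adjusted p was 1.8e-06. Well-watered leaf rose alike, from at most 0.125 CPM to between 19.7 and 22.5 CPM. The difference of the changes was not called (adjusted p = 0.304, edgeR). The call of the droughted change ended in the edgeR fit of the 2 droughted groups with the block (adjusted p = 0.102, the highest of 25 alternatives, of which 2e-16 was the lowest). Next-year leaves of both regimes held 24.3 to 34.4 CPM, and the 16 root libraries had a median of 1.51 CPM without TMM scaling.

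MD14G1145600 had the largest fall under the rule. Its level was 31.2, 8.32 and 7.80 CPM at the first drought and 2.35, 0.398 and 0.132 CPM at the third. The groups did not overlap, and the fitted change was -4.37 on the log2 scale (SE 0.78, edgeR adjusted p = 0.0046). In well-watered leaf the change was 0.25, and the difference of the changes was called at -4.62 (SE 1.02, adjusted p = 0.0246). The call of the droughted change ended in the edgeR fits of the 2 droughted groups, with the block (adjusted p = 0.105) and without it (0.0717). Its adjusted p ran from 1.2e-16 to 0.105 over 25 alternatives. All next-year libraries were at or under 0.0332 CPM, with 0 to 2 counts each.

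MD05G1320800 was the most abundant of the 4. It stood at 288, 682 and 289 CPM at the first drought and at 51.1, 7.85 and 4.39 CPM at the third, a fitted change of -4.12 (SE 1.20, edgeR adjusted p = 0.0355). Well-watered leaf of the first sampling was at 7.47, 27.1 and 8.58 CPM, below every first-drought library, and at the third sampling it was at 21.6, 53.0 and 2.87 CPM, overlapping the droughted leaves. The difference of the changes was not called, at -4.90 (SE 1.55, edgeR adjusted p = 0.0782). Its adjusted p ran from 4.8e-12 to 0.136 over 25 alternatives. It was above 0.05 without block 1 or 2 of the first drought, without block 2 or 3 of the third, without block 3 of the third sampling in both regimes, with no filter on low counts, and with edgeR on the 6 droughted libraries alone.

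By the difference of the changes another 4 genes were taken, the largest in each direction among 652 and 253 that met the rule. MD12G1252200 was low at the first drought in all blocks. Its values there were 1.84, 11.3 and 0.375 CPM, and it reached 238, 236 and 248 CPM at the third. Well-watered leaf was at 250, 90.7 and 250 CPM at the first sampling and at 417, 69.2 and 73.2 CPM at the third. Only the first-drought libraries were low. The droughted change was called (edgeR adjusted p = 0.0050), and the difference of the changes was 6.31 on the log2 scale (SE 1.37, adjusted p = 0.0227). The difference was above 0.05 without block 1 of either regime at the first sampling, without block 2 of either regime at the third, without well-watered block 3 of the third, in both fits that left out block 3 of both regimes, and in the fit of 4 groups. Its adjusted p ran from 0.00013 to 0.0988 over 23 alternatives.

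MD05G1183000 had 1 count in all at the first drought and 1.58, 3.49 and 25.3 CPM at the third. The pooled ratio was 967, with a 95% exact interval of 173 to 38242 for counting error only. Well-watered leaf held 0.605 to 0.982 CPM at the first sampling and 0.264 to 9.33 CPM at the third. The difference was just past the threshold, at 7.38 (SE 1.99, edgeR adjusted p = 0.0480). It was lost under 16 of 23 alternatives, among them the removal of any first-year leaf library other than block 1 of the third drought, with adjusted p from 0.00032 to 0.159.

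The most negative differences came from a pair of genes that fell in drought and were higher at the third sampling in well-watered leaf, in all 3 blocks for MD04G1142600 and in 2 of 3 for MD12G1218000. MD12G1218000 went from 10.6, 7.46 and 5.92 CPM at the first drought to 3.23, 0.171 and 0.297 CPM at the third. In well-watered leaf it went from 1.68, 0.981 and 0.837 CPM to 17.4, 20.9 and 0.385 CPM, with block 3 the one that was lower. The difference was -6.37 (SE 1.38, edgeR adjusted p = 0.0226, and 0.00011 to 0.0867 over 23 alternatives). Leaving out block 1 or 2 of well-watered leaf at the first sampling, block 3 of the first drought, or block 2 of either regime at the third ended the call, as did the fit of 4 groups.

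MD04G1142600 went from 12.3, 4.56 and 3.47 CPM to 2.90, 0.0948 and 0.0991 CPM in drought. Well-watered leaf went from 0.125, 0.919 and 0.260 CPM to 8.26, 6.76 and 0.711 CPM. The difference was -6.32 (SE 1.40, edgeR adjusted p = 0.0246, and 0.00026 to 0.0888 over 23 alternatives). It was lost without block 1 of the first drought, without block 2 of either regime at the third sampling, without block 3 throughout and in the fit of 4 groups. Both genes were at 0 to 3 counts in every next-year library, while their medians over 16 root libraries were 4.94 and 8.81 CPM without TMM scaling.

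**Figure D4:**
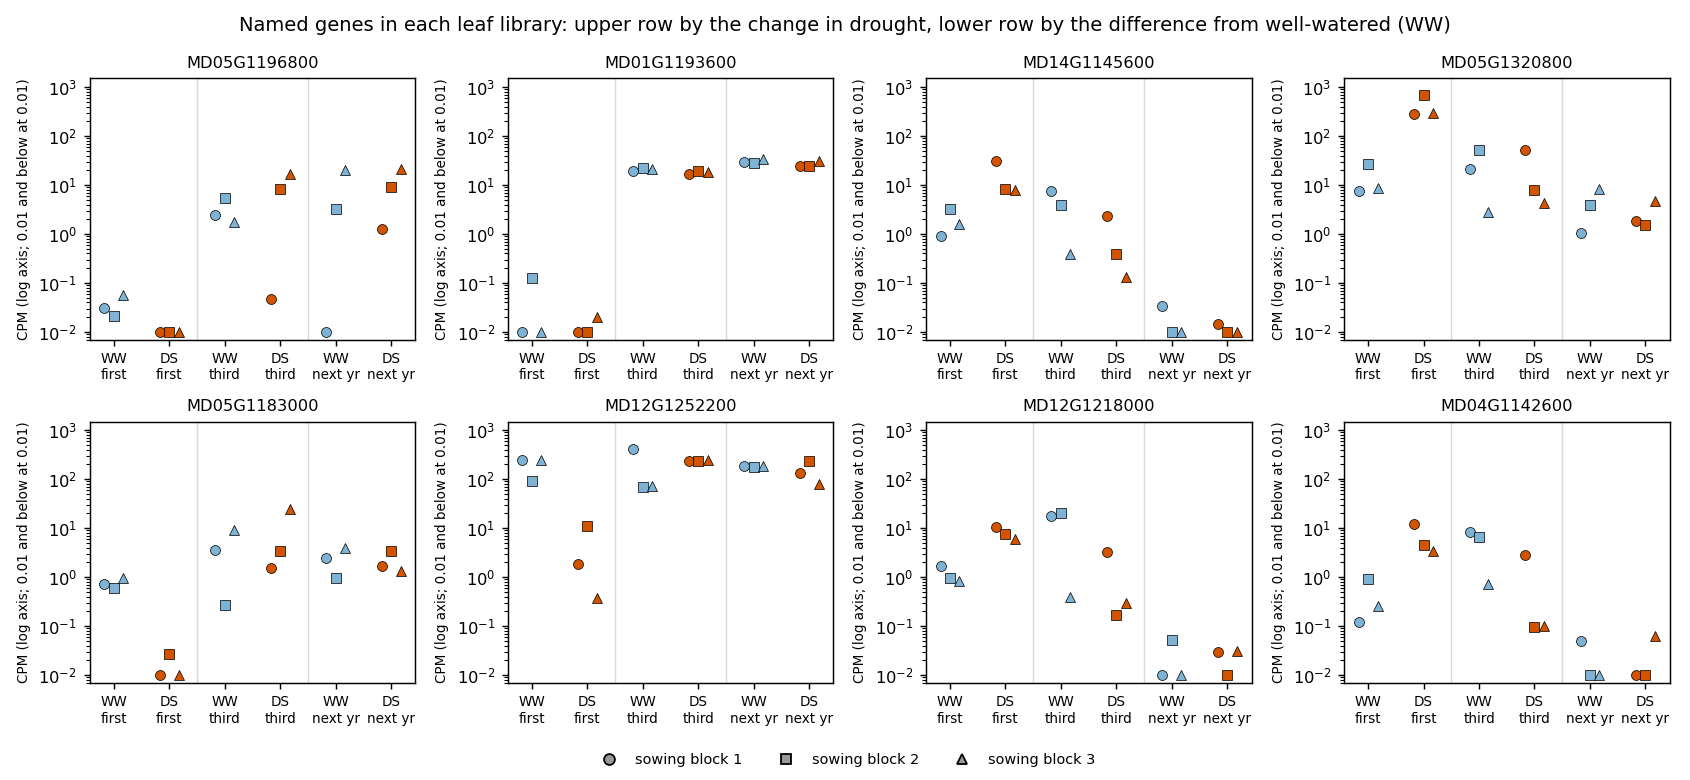
CPM of the 8 named genes in each leaf library on a log axis, with values of 0.01 and below drawn at 0.01, by regime (WW, well-watered; DS, droughted) and sampling; point shapes are sowing blocks. MD01G1193600 rose to at least 16.8 CPM in all 6 libraries of the third sampling, while MD12G1252200 was low only in the 3 first-drought libraries, at 11.3 CPM or less.

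Genes with neighbouring identifiers were then compared. Of the genes that rose, 12.1% were followed by a tested identifier that also rose, where 8.12% of all tested genes with a successor rose. Among those that fell, 12.0% were followed by another that fell, against 7.87%. Runs of at least 3 neighbours called in 1 direction numbered 36 for rises (116 genes) and 32 for falls (108 genes). Near-identical copies share reads in Salmon's estimates, so levels of single genes in a run are less certain than the sum of the run. The share of tested genes called was 14.2 to 18.6% over the 18 2-digit numbers in the identifiers.

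Runs of at least 5 neighbours, chosen after their values were seen, numbered 4 and held 23 genes. The first holds MD01G1193600 and 4 neighbours, all higher at the third drought by 5.37 to 10.67 on the log2 scale. Its summed level was 0.190, 0.268 and 0.237 CPM at the first drought and 26.8, 32.1 and 33.3 CPM at the third. Well-watered leaf was at 0.0623 to 0.459 CPM and then at 34.9 to 42.8 CPM, and next-year leaves were at 47.0 to 71.4 CPM. All 5 genes were also called higher in well-watered leaf, and none (0 of 5) passed the difference of the changes (lowest edgeR adjusted p 0.304). The tested identifiers on either side changed by 0.23 and -0.27 and were not called. It held the 3 genes, and no others, that were at 1 CPM or more in all 6 first-year libraries of the third sampling and at least 8-fold above every library of the first. No gene (0) did the reverse.

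Another run of rises held 5 genes whose identifiers carry the number 4. Its sum was 27.1, 48.8 and 33.2 CPM at the first drought and 265, 362 and 171 CPM at the third. Well-watered leaf held 208 to 303 CPM at the first sampling and 109 to 326 CPM at the third. Only the first-drought libraries were low. Within the run 3 of 5 genes passed the difference of the changes, and none was called in well-watered leaf, where the median change was -0.16 (lowest count of members called with 1 library left out, 3, without blocks 1 or 2 of the first drought or block 1 of the third).

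The third run holds MD05G1320800 and 4 neighbours, with changes of -7.14 to -2.47 on the log2 scale. Its sum was 302, 695 and 319 CPM at the first drought and 56.3, 12.2 and 5.15 CPM at the third, with well-watered leaf at 8.28 to 29.2 CPM and 4.83 to 66.0 CPM. Here the first-drought leaves were the high ones, and 4 of 5 genes passed the difference. The one that did not was MD05G1320800 (adjusted p = 0.0782, edgeR), which made up most of the sum in each first-drought library. The calls rested on few libraries: 0 of 5 remained without block 2 of the third drought, 1 without block 3 of the third, 2 without blocks 1 or 2 of the first and 3 without block 3 of the first.

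The longest run had 8 genes, with the number 10, with changes of -3.89 to -3.34 on the log2 scale. Its sum was 346, 657 and 474 CPM at the first drought and 58.5, 84.7 and 4.23 CPM at the third. Well-watered leaf fell from between 310 and 915 CPM to between 25.1 and 68.5 CPM, with 8 of 8 genes called lower there and 0 of 8 passing the difference (lowest edgeR adjusted p 0.371). In next-year leaves the sum was at most 0.887 CPM, while root libraries held 198 to 5990 CPM without TMM scaling. Root-restricted genes as a list took 0.0158 to 0.0208% of first-drought and 0.0107 to 0.0328% of third-drought leaf counts, and any part of root RNA in the level of this run was not tested.

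**Figure D5:**
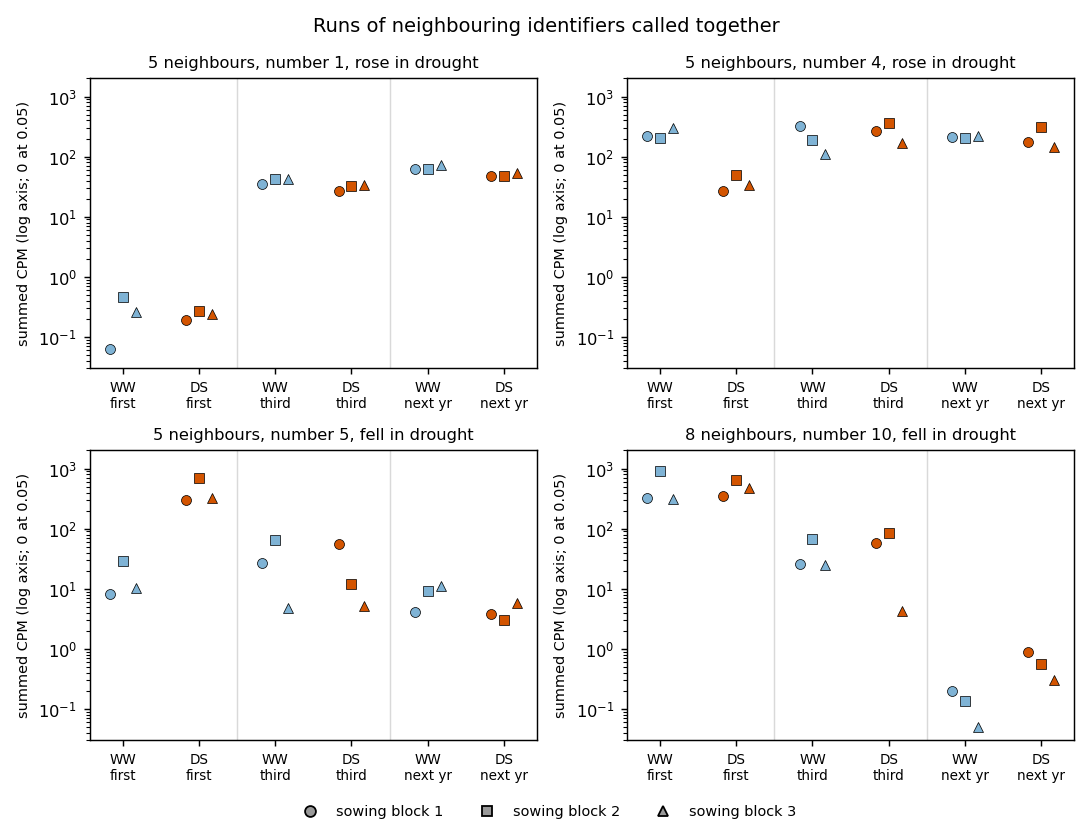
Summed CPM of the 4 runs of neighbouring identifiers in each leaf library on a log axis, with 0 drawn at 0.05, by regime (WW, well-watered; DS, droughted) and sampling; point shapes are sowing blocks. In the runs numbered 1 and 10 both regimes moved together, and in the runs numbered 4 and 5 the first-drought leaves lie apart at 48.8 CPM or less and at 302 CPM or more.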

How the data were processed

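The authors deposited 1 table of estimated counts, in whole numbers as found, with 52311 gene identifiers and 34 libraries. Per the submitters' processing notes FastQC, Salmon, DESeq and DESeq2 were used. Their versions and settings, the genome build and the annotation are not given in the sources used here. Reads that match several similar transcripts are apportioned by Salmon, which makes near-identical copies uncertain. Per the labels' protocols, about 50 mg of tissue per sample went into a stranded mRNA library, read as 100 bp pairs.

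Counts of all 18 leaf libraries were fitted together in edgeR 4.0.16 (R 4.3.3): filterByExpr, TMM, glmQLFit with robust dispersions and glmQLFTest, with 6 groups and sowing block as terms, leaving 10 residual degrees of freedom. Benjamini-Hochberg adjusted p under 0.05 over all genes tested counted as called. The SE is the log2 change divided by the square root of F. Log2 CPM used a prior count of 2. DESeq2 1.42.0 was an alternative. Other alternatives covered scaling, filters, the groups fitted, the block and single libraries.

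The labels give the replicate number as sowing block and batch, which pairs the libraries. Departures from the group mean were correlated between libraries of 1 block, at -0.39 to -0.21 between the droughts, and at 0.18 to 0.64 between regimes at 1 sampling. No 2 leaf libraries of a group agreed within sampling noise (lowest chi-square per gene 25.1 over 18 pairs).

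Genes were named by size of change: adjusted p under 0.05, a mean of at least 1 log2 CPM, no overlap and 1 direction in all blocks, and the largest 2 each way. For the difference of the changes, both calls, the same mean and no overlap were asked. Named gene lists and markers were not run, since identifiers carry no names. The members, lists and tests were chosen with earlier results of these data known. Counts were simulated from the fitted means, library sizes and dispersions, with 67, 67 and 66 genes above 1 log2 CPM changed 2-, 4- and 8-fold. Of these 46.3, 85.1 and 95.5% were called among 31946 tested, and 4 unchanged genes. Far fewer genes changed there than were called in the data. The libraries were also drawn independently, without the correlated departures within a block given above. These shares and the count of unchanged genes called may therefore not carry over.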

Additional observations from a re-analysis of the deposited data

Results flagged for a closer look

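The change between the samplings differed between droughted and well-watered leaf in 1872 genes by the direct test of the difference in edgeR, 1102 more positive and 770 more negative in drought. Their median difference was 1.54 and -1.80 on the log2 scale. The count was 394 without the well-watered block 2 library of the third sampling, whose 10 most abundant genes held 29.6% of its counts. It was 0 with edgeR on the 4 first-year groups, where 6294 genes had an unadjusted p under 0.05, 2888 with DESeq2 on the same groups, and 6018 with a block term within each sampling. No group of leaf libraries was large enough to test single libraries as outliers.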

How the results depend on the processing

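The count of genes called between the droughts was 5163. It was 5349 without the replicate block, with 4774 of the 5163 among them. No named gene of the comparison of the droughts lost its call there, and the difference of MD05G1183000 did (adjusted p = 0.0625, edgeR). The count moved by more than 1.5 times to 2383 with the 4 first-year leaf groups, to 0 with the 2 droughted groups, to 1838 with these and no block, and to 2775 with these in DESeq2. The smaller fits have fewer samples and leave out the next-year groups, whose libraries lay closer together. The median SD of log2 CPM within a group was 0.183 and 0.217 in well-watered and droughted next-year leaf. In the first-year leaf groups it was 0.287 to 0.301. Whether this spread bears on the counts was not tested. Leaving out 1 library gave 2067 to 5618. The well-watered count of 5100 was 2157 with 4 groups and 1739 to 5489 with 1 library left out. Called genes that also passed the difference numbered 1078, against 2211 with DESeq2, 0 with 4 groups in edgeR (6294 genes with an unadjusted p under 0.05; 1594 with DESeq2 on the same groups), 521 without block 3 throughout, 2199 with the replicate block within each sampling, and 279 to 1367 with 1 library left out. Of 68 values for lists, 63 stayed within 1.5 times. With the well-watered lists rebuilt without block 2 of the third sampling, 40.3% of the genes that fell there also fell in drought and 2.77% rose. The fits of the 2 droughted groups with no block or in DESeq2, DESeq2 on 4 groups, the block within each sampling, and the fits with block 3 left out were chosen after seeing the data. The depth of 25974815 counts or more leaves genes near 0 CPM uncertain.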
